A study of Homo sapiens with 6 samples.

Results

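The globin genes are the 10 rows of the deposited gene table whose symbol is HBE1, HBG2, HBG1, HBB, HBD, HBA1, HBA2, HBZ, HBM or HBQ1, out of 57150 rows in all. All 10 were found, once each. The set was chosen by its measured levels, since HBE1 stood high beside near-absent other globin genes, so the order of the levels is given below as a description. The libraries came from K562 cells, a human erythroleukemia line, 72 h after transfection with siRNA. In 3 cell pools the siRNAs co-targeted αCP1 and αCP2 (PCBP1 and PCBP2), which are poly(C)-binding proteins, and in the 3 other pools they were control siRNAs. Per the paper, some αCP pools had the same siRNA, whereas each control pool had a different one. Some of the libraries of both groups had been used in an earlier study. The table gives 1 FPKM value (fragments scaled by transcript length and library size) and 1 estimated count per gene for each group, so the spread between pools is not known, no test was run, and every difference below lacks a replicate check. In bulk RNA, fewer cells of a type and less RNA per cell cannot be told apart.

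Hemoglobin is a tetramer of α-like and β-like globin chains, each carrying heme. The α-like genes (HBZ, HBM, HBA2, HBA1 and HBQ1) form a cluster on chromosome 16 and the β-like genes (HBE1, HBG2, HBG1, HBD and HBB) a cluster on chromosome 11, and each cluster is used in order during development. HBE1 encodes the embryonic ε chain and HBZ the embryonic ζ chain, HBG1 and HBG2 encode the fetal γ chains, HBB and HBD the adult β and δ chains, and HBA1 and HBA2 the α chain of fetal and adult hemoglobin. K562 cells are known as a model of embryonic and fetal globin expression. αCPs are known to bind a C-rich element in the α-globin mRNA and to stabilize it.

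The labels were checked first. Where 2 values are given together, here and below, the KD-labelled column comes first. Neither targeted gene was clearly lower in the KD-labelled column, with log2 ratios of FPKM + 1 of -0.03 for PCBP1 and 0.63 for PCBP2. The paper reports depletion of both in mRNA and in protein, which these values do not show. The columns are therefore called by their labels, and no direction is ascribed to the loss of αCPs. Of 12 erythroid markers, 8 were at 0 counts in both columns (GATA1, TAL1, KLF1, GYPB, GYPE, ALAS2, SLC4A1 and HEMGN) and 10 were under an FPKM of 1 in both. The list summed to an FPKM of 4.69 for KD and 6.41 for CTRL, most of it EPOR, the erythropoietin receptor, at 3.55 and 5.08. Of 8 epithelial markers, 4 exceeded an FPKM of 5 in both columns, KRT7, KRT8, KRT18 and CLDN4, and 2 were at 0 counts in both (KRT19 and ESRP1). EPCAM had an FPKM of 3.94 and 3.26, and CDH1 had 0.363 and 0.426. The list summed to 4370 and 3190, most of it KRT8 and KRT18. Of 8 markers of other blood cells, 5 were at 0 counts in both columns and all 8 were under an FPKM of 1. The defining markers of an erythroid line were thus at or near 0 in both columns, and their part in the globin values was not tested. Whether the columns hold the labelled cells could not be settled, so the cell line and treatment of every value below are as labelled only.

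Reads of near-identical genes can be exchanged between them, so the last 100 coding bases of the β-like genes, of HBA1 and HBA2 and of the embryonic α-like gene HBZ are shown first, each as long as 1 sequencing read. They were read from GRCh37 (hg19, the build of the table) and end just before the stop codon. In the β-like lines, capitals mark bases that differ from HBE1. HBE1 lies at chr11:5289702-5289801, HBG2 at chr11:5274510-5274609, HBG1 at chr11:5269592-5269691, HBB at chr11:5246831-5246930 and HBD at chr11:5254197-5254296, all on the minus strand and within the coding part of the third exon.
HBE1: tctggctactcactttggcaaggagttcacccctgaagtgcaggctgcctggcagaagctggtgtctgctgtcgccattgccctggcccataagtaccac
HBG2: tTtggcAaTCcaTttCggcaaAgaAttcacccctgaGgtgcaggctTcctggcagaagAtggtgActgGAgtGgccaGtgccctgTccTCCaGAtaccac
HBG1: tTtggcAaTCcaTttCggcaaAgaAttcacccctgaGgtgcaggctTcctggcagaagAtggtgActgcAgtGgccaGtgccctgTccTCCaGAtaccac
HBB: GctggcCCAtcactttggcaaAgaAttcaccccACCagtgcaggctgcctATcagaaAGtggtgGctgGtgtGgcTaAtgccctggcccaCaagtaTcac
HBD: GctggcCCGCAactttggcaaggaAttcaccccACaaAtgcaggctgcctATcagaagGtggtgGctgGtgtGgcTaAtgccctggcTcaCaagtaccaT

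Against HBE1, these stretches held 22 differences in HBG2, 21 in HBG1, 20 in HBB and 21 in HBD. In the α-like lines below, capitals mark bases that differ from HBA1. HBA1 lies at chr16:227308-227407, HBA2 at chr16:223497-223596 and HBZ at chr16:204297-204396, all on the plus strand.
HBA1: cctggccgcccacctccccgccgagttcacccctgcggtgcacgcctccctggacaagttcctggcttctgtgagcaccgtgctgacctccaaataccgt
HBA2: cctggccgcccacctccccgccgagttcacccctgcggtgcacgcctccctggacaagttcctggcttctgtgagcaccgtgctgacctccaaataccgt
HBZ: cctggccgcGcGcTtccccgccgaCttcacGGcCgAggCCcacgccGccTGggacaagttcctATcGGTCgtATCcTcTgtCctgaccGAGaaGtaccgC

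HBA2 held 0 differences from HBA1 in this stretch and 0 over all 426 coding bases, while HBZ held 30 in the stretch. HBG1 and HBG2 differed at 2 of 441 coding bases. HBE1 was 83.4% identical to either of them over the same length, 79.1% to HBB and 78.5% to HBD. When every stretch of 100 bases of a gene's main GENCODE transcript was searched for in the annotated transcripts of the 9 other genes with up to 3 mismatches, the number the authors allowed per read, 0 of 524 stretches of HBE1 were found elsewhere. Of HBG2, 453 of 487 stretches (93.0%) were found in HBG1, and 263 of them were identical. Of HBA1, 389 of 478 (81.4%) were found in HBA2, 381 of them identical. Of HBB, 66 of 529 (12.5%) were found in HBD. Of HBZ, 111 of 699 (15.9%) were found in annotated transcripts of HBM, 106 of them identical, and both genes had 0 counts. Single values of HBA1, HBA2, HBG1 and HBG2 are therefore uncertain and are also given as sums below, whereas HBE1 had no such stretch in common with the 9 others.

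**Figure D1:**
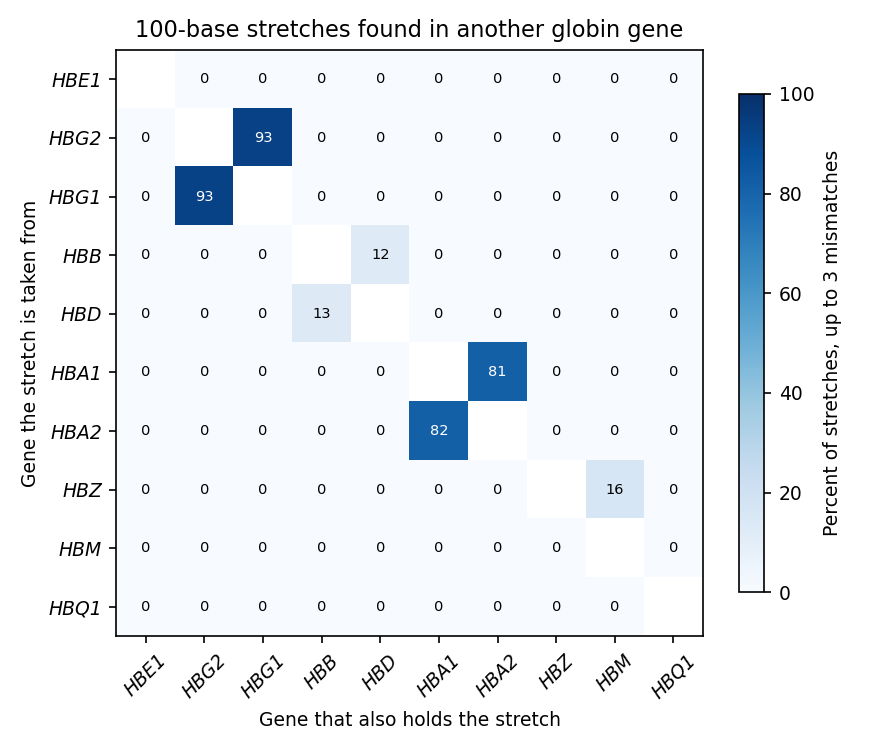
For each globin gene (rows), the percent of 100-base stretches of its main transcript that also occur in an annotated transcript of another globin gene (columns), with up to 3 mismatches. The pairs HBG1 with HBG2 and HBA1 with HBA2 stand out at 81.4% to 93.0%, and the row of HBE1 holds 0 throughout.

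HBE1 (ENSG00000213931) was the most abundant of the 10 genes in both columns. Its main transcript spans 5289575 to 5291175 on chromosome 11 and has 3 exons. In the KD-labelled column it had 1176 counts (exact 95% Poisson interval 1110 to 1245) and an FPKM of 152.9. In the CTRL-labelled column it had 286 counts (254 to 321) and an FPKM of 35.4. These intervals cover counting error only, as do all those below. HBE1 was higher in the KD-labelled column, and the counting intervals did not overlap. Its FPKM was 4.32-fold higher there. By FPKM, HBE1 ranked 888 of 20730 genes above 0 in the KD-labelled column and 3037 of 21136 in the CTRL-labelled column. HBE1 was thus a moderately abundant mRNA in both columns and not among the leading ones. The depth behind these values is taken as the column total of 13699340 and 11680567 estimated counts. Each total is below the number of mapped read pairs that the paper gives for any single library, and the reason was not tested. Limits of depth given here are those of the estimated counts, not of the sequencing. HBE1 took 94.3% of all globin counts in the KD-labelled column (exact binomial interval 92.9 to 95.5) and 93.8% in the CTRL-labelled column (90.4 to 96.2). These intervals overlap, and no difference in its share is read from them. They do not cover how reads shared by near-identical genes were counted. By FPKM, which is per length, its share of the 10 genes was 91.3% and 89.1%.

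The other β-like genes had few counts. HBG2 (ENSG00000196565, main transcript from 5274418 to 5276011 on chromosome 11) had 31.5 counts (21.9 to 45.2) and an FPKM of 4.33 in the KD-labelled column, against 10.2 counts (4.80 to 18.4) and an FPKM of 1.63 in the CTRL-labelled column. HBB (ENSG00000244734, 5246694 to 5248301) had 5 counts (1.62 to 11.7) and an FPKM of 1.89 in the KD-labelled column, against 1 count (0.0253 to 5.57) and an FPKM of 0.649 in the CTRL-labelled column. The counting intervals of the columns overlapped for HBB, and narrowly did not for HBG2. The HBG2 counts are not whole and may be parts of a divided total, as described below. Their intervals do not cover how such a total was divided. HBG1 and HBD each had 1 count in the KD-labelled column and 0 in the CTRL-labelled column, and no fold is given for either. The fetal pair HBG1 and HBG2 together held 32.5 and 10.2 counts, so the γ-globin sum lay far below HBE1 in both columns. This holds for the counted reads, however they are divided within the pair. A sum does not bring back reads that match both genes if such reads were left out of the counts. Whether they were left out was not tested, and it also limits the share of HBE1.

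Of the α-like genes, HBA1 (ENSG00000206172, 226679 to 227521 on chromosome 16) had 26 counts (17.0 to 38.1) and an FPKM of 6.60 in the KD-labelled column, against 5 counts (1.62 to 11.7) and an FPKM of 1.29 in the CTRL-labelled column. HBA2 (ENSG00000188536, 222875 to 223709) had 6 counts (2.2 to 13.1) against 3 (0.619 to 8.77), and its FPKM was 1.48 against 0.749. Since these genes have the same coding sequence, the sum of 32 and 8 counts is safer than the single values. It has the same limit as the γ-globin sum, and its FPKM was 8.08 and 2.04. HBZ, HBM and HBQ1 had 0 counts in both columns, which allows about 3 counts, a floor of 0.219 CPM (counts scaled to a common column total) for KD and 0.257 CPM for CTRL, and the 2-sided Poisson interval drawn in the plot of counts ends at 3.69 counts. ζ-globin was thus not detectable at this depth, and the only α-like mRNA measured was that of HBA1 and HBA2. By FPKM, a scale per length, the order in the KD-labelled column was HBE1, HBA1, HBG2, HBB, HBA2, HBD and HBG1, and in the CTRL-labelled column it was HBE1, HBG2, HBA1, HBA2 and HBB with the others at 0. After HBE1, HBG2 and HBA1 had overlapping counting intervals in both columns, and so had HBB and HBA2.

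**Figure D2:**
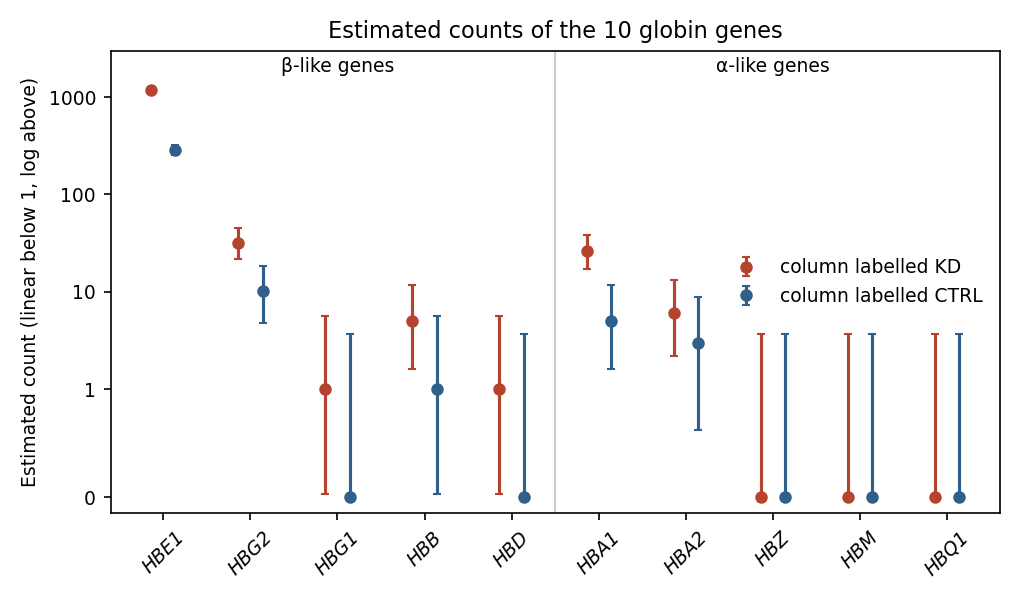
Estimated count of each globin gene in the KD-labelled column (red) and the CTRL-labelled column (blue), on an axis that is linear below 1 and logarithmic above, with the exact 95% Poisson interval as the bar. HBE1 lies at 1176 and 286 counts, HBG2 and HBA1 at 31.5 or fewer, and HBZ, HBM and HBQ1 at 0.

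The difference between the columns was set against all genes. The log2 ratio of (FPKM + 1) in the KD-labelled column over that in the CTRL-labelled column was computed for the 13741 genes whose FPKM averaged 1 or more over both columns, and the pseudocount of 1 understates the change of low genes. The ratio was 1 or more for 8.51% of these genes and -1 or less for 3.27%. Of the 10 globin genes, 3 had a ratio of 1 or more, HBE1 at 2.08, HBA1 at 1.73 and HBG2 at 1.02, and 0 had a ratio of -1 or less. HBB was at 0.81 and HBA2 at 0.50, and the 5 others did not reach the mean FPKM of 1. HBB and HBA2 reached it only through the KD-labelled column and so had to have a ratio above 0, and since HBE1 was chosen by its level and 4 of the 5 genes rest on few counts, nothing about the set is read from the 3 of 10. The 5 genes lie in 2 clusters, and reads may be exchanged between HBA1 and HBA2 and between HBG1 and HBG2. The values of the 5 genes are therefore not treated as independent. Among the 9432 genes whose FPKM averaged 5 or more, 95 had a ratio as high as that of HBE1, HBE1 included.

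**Figure D3:**
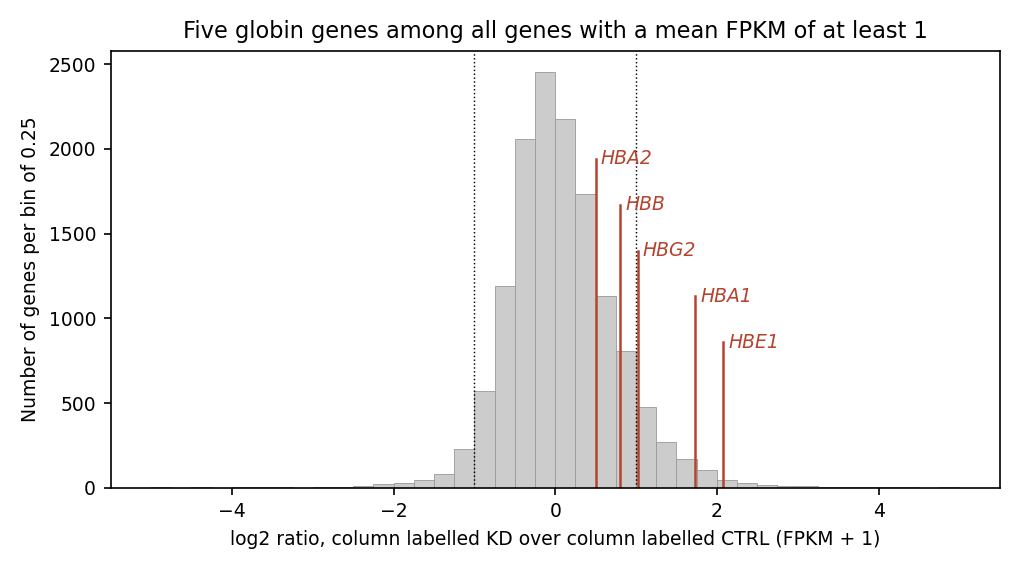
Histogram of the log2 ratio of FPKM + 1, KD-labelled column over CTRL-labelled column, for the 13741 genes whose FPKM averaged 1 or more, in bins of 0.25, with the 5 globin genes that passed this limit as red lines and ratios of 1 and -1 dotted. HBE1 lies furthest right of the 5, at 2.08, and all 5 lie above 0. The heights of the red lines carry no meaning.

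The size of the ratio depended on the scale for all of these genes, and least for HBE1. As a share of the column total, HBE1 had a log2 ratio of 1.81 with an exact binomial counting interval of 1.62 to 2.00. The median of all genes on that scale was -0.21 against 0.01 for FPKM, and relative to it HBE1 was at 2.02. On the same scale, without that shift, HBA1 was at 2.15 (0.74 to 3.89), HBG2 at 1.39 (0.39 to 2.64), HBB at 2.09 (-1.07 to 7.66) and HBA2 at 0.77 (-1.46 to 3.40). The interval of the last 2 genes includes equal shares, and that of HBG2 does not cover how its counts were divided. The α-globin sum of HBA1 and HBA2 was at 1.77 (0.62 to 3.10), close to HBE1, but its interval is wide. On the count-share scale, with 0.5 added to each count, 951 genes had a ratio of 1 or more and 1351 had one of -1 or less. With FPKM these numbers were 1169 and 450. The count-share numbers were also taken without removing the median of -0.21, so they include that shift. When a quadratic trend of the ratio in GC content and length across genes was taken out, HBE1 was at 1.96, HBA1 at 0.90 and HBG2 at 0.99, both under 1, and HBA2 at -0.39, with the opposite sign. HBB was then at 0.65. The α-globin transcripts are rich in G and C, at 66.3% for HBA1 and 67.3% for HBA2, against 51.4% for HBE1 and 48.7% for HBG2. HBE1 was the only globin gene with a ratio of 1 or more under each of these scales, though HBG2 missed this limit narrowly, at 0.99. On the count-share scale, the intervals of HBA1 and HBG2 include the value of HBE1.

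**Figure D4:**
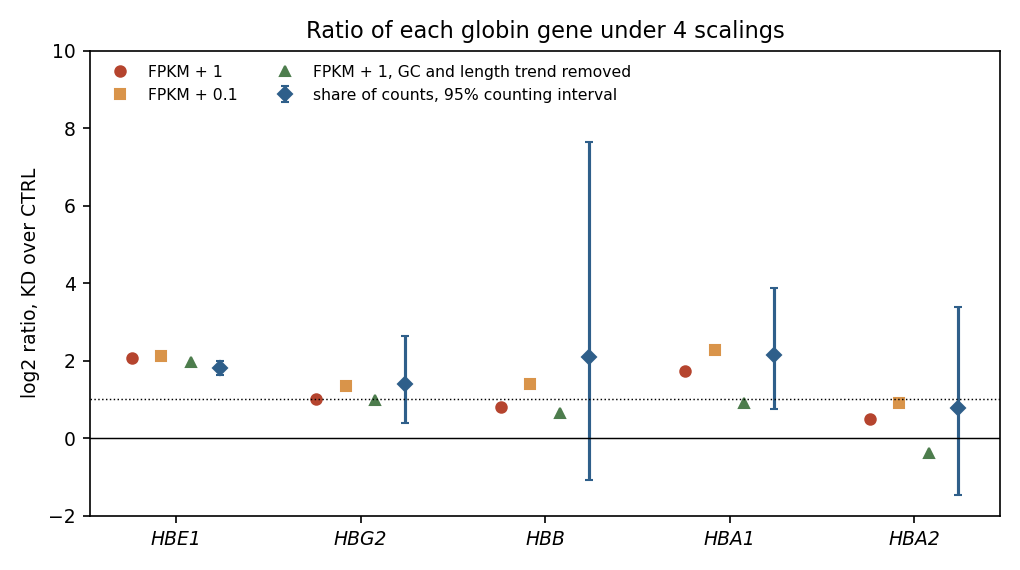
Log2 ratio of the KD-labelled column over the CTRL-labelled column for the 5 globin genes whose FPKM averaged 1 or more, from FPKM + 1, from FPKM + 0.1, from FPKM + 1 after the GC content and length trend was taken out, and from shares of the column totals with their exact 95% counting interval. The 4 values of HBE1 lie between 1.81 and 2.11, while those of HBA2 lie on both sides of 0.

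The same count was worth nearly the same FPKM in both columns: over the 13609 genes with at least 10 counts in each, the FPKM per count in the KD-labelled column was 0.998 times that in the CTRL-labelled column at the median, and 0.779 to 1.29 times from the 5th to the 95th percentile. HBE1 was at 1.05 and HBG2 at 0.865. The 3 other genes have fewer counts than this limit in at least 1 column, HBA1 at 0.987, HBA2 at 0.988 and HBB at 0.581. The last of these came from 0.377 and 0.649 FPKM per count. The FPKM of HBB thus rested on a different weight per count in each column as well as on 5 counts and 1 count.

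HBE1 and HBG2 share a locus in the table that spans 392.6 kb, from 5274420 to 5667019 on chromosome 11 in hg19, and holds 34 genes, mostly olfactory receptor genes and pseudogenes. In GENCODE release 44, a later annotation than the one used for counting, each of the pair has transcripts that begin far upstream among these genes. The 2 long HBE1 transcripts span 237308 and 237260 bases and the long HBG2 transcript 252416 bases, against 1601 and 1594 bases for the short ones, which begin at the genes themselves. The counts of the locus show which of its genes differed between the columns. Without HBE1, the 33 other genes held 217.0 counts in the KD-labelled column and 208.0 in the CTRL-labelled column, a log2 ratio of count shares of -0.17 with an interval of -0.45 to 0.11. This interval includes equal shares and lies below that of HBE1. HBE1 was 84.4% of the counts of the locus in the KD-labelled column and 57.9% in the CTRL-labelled column. The next gene by counts, AC104389.28 (ENSG00000167355, named OR51B5 in GENCODE release 44), held 96.1 and 87.8 counts, a ratio of -0.10 (-0.54 to 0.33). OR51B4, an olfactory receptor gene, held 14 and 17 counts, and OR51J1 held 16 and 18. TRIM6, a ubiquitin ligase gene at the far end of the locus, was lower in the KD-labelled column, at 17.0 against 38 counts, a ratio of -1.39 (-2.31 to -0.53). HBG2 was higher there, as given above, and so was the olfactory receptor gene OR51I2, at 9 and 1 counts, a ratio of 2.94 (0.089 to 8.39). The genes of the locus thus differed in direction, and those named were chosen after their values were seen.

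**Figure D5:**
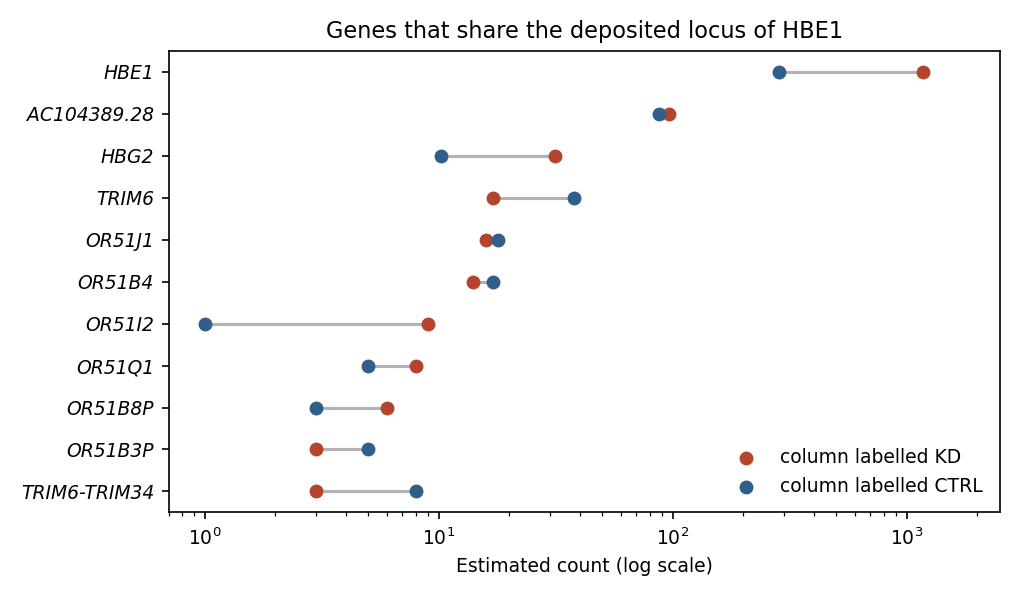
Estimated counts, on a log axis, in the KD-labelled column (red) and the CTRL-labelled column (blue) of the genes that share the locus of HBE1 in the table and have at least 5 counts in either column, joined by a grey line. HBE1 lies at 1176 and 286, AC104389.28 at 96.1 and 87.8, and TRIM6 lies lower in the KD-labelled column.

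The counts of HBE1 were whole numbers in both columns, whereas those of HBG2 were not. Within a tolerance of 0.01, 3 genes of the locus had counts that were not whole in either column, HBG2, AC104389.28 and the gene listed as OR51B5 (ENSG00000242180). Their counts summed to 132.003 in the KD-labelled column and 103.000 in the CTRL-labelled column. The sums are whole within the same tolerance although none of the 3 parts is, as for a total divided among these genes. How the authors divided it is not given in the sources used here. The difference of HBG2 between the columns may depend on this division, which was not tested. In GENCODE release 44, exons of HBG2 overlap those of ENSG00000167355 by 37 bases and those of HBE1 by 37 bases, and exons of HBE1 overlap those of ENSG00000167355 by 84 bases. A further gene, AC015691.13 (ENSG00000239920), has annotated exons that cover 781 of the 961 exonic bases of HBE1 and 268 of the 841 of HBG2, and it was listed at 0 counts in both columns. HBZ shares its locus with HBM and the pseudogene HBZP1, which were all at 0.

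Genes around the clusters were taken from lists. Of 11 olfactory receptor genes around the β-like cluster, 1 passed the limit of a mean FPKM of 1, OR51B4, and 0 had a ratio of 1 or more. Of 10 genes around the α-like cluster, 9 passed it, 2 of them with a ratio of 1 or more against 8.51% of all genes, and the median of the 9 was 0.69 against 0.01 for all genes. After the GC content and length trend was taken out, that median was 0.14. The 2 were MPG, a DNA glycosylase gene, with an FPKM of 93.8 in the KD-labelled column and 22.8 in the CTRL-labelled column (a log2 ratio of 1.99), and AXIN1, a scaffold of the β-catenin destruction complex, with 17.3 and 4.76 (1.67). With that trend taken out they were at 1.34 and 1.06. NPRL3, whose introns hold the known α-globin enhancers, had an FPKM of 33.3 and 19.6 (0.74), and LUC7L had 42.0 and 42.9 (-0.03). POLR3K had 51.5 and 64.3 (-0.32), the lowest ratio of the 9. HBA1 and HBA2 thus lay among active genes, and nothing is read from the directions of these few genes. Of the other globin-fold genes, myoglobin (MB) had an FPKM of 4.11 and 4.53, the cytoglobin gene CYGB had 0.436 and 0.375, and NGB and ADGB had 0 counts. The pseudogenes HBBP1 and HBZP1 had 0 counts as well.

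The genes most like HBE1 were taken as the 5 with the smallest distance in log2(FPKM + 1) over the 2 columns, a likeness over 2 values only. They were PRKCSH at an FPKM of 147.8 and 33.9, AC006011.4 at 167.6 and 37.1, INF2 at 166.6 and 39.5, METRN at 139.1 and 29.4, and RP11-366M4.1 at 125.5 and 33.2. HBE1 was the only globin gene near this level.

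Of 24 listed regulators of globin switching and erythroid genes, 14 passed the limit. Of these, 0 had a ratio of 1 or more and 1 had a ratio of -1 or less, against the background of 8.51% and 3.27%, and their median was 0.01. The 1 gene was DNMT1, the maintenance DNA methyltransferase, with an FPKM of 14.6 in the KD-labelled column and 34.9 in the CTRL-labelled column, a ratio of -1.20. The erythroid activators GATA1, TAL1 and KLF1 had 0 counts in both columns, as had LIN28B. GATA2, a related GATA factor of early progenitors, had an FPKM of 16.9 and 10.1. LDB1, which links enhancers to globin promoters, had 22.4 and 11, a ratio of 0.96. Of the repressors of γ-globin, BCL11A had 0 and 1 count, and ZBTB7A had an FPKM of 16.3 and 9.05. BCL11A, the known silencer of the γ-globin genes, was thus near 0 in both columns. NR2C1 and NR2C2, orphan receptors that bind the ε-globin promoter, had 23.2 and 35.8, and 4.80 and 6.76. NR2F2, an orphan receptor of embryonic cells, had 35.1 and 29.0. AHSP, the chaperone of free α chains, had 1 and 0 counts. ZFPM1, the GATA cofactor FOG1, had 83 and 13 counts and an FPKM of 2.43 and 0.784. Its ratio was 0.94 from FPKM, 2.40 by count share and 0.006 after the GC content and length trend was taken out. SOX6, a known repressor of ε-globin, had 12 and 0 counts and an FPKM under 1. The call for ZFPM1 thus depended on the scale. IGF2BP1 and IGF2BP3, RNA-binding proteins of fetal cells, had an FPKM of 12.4 and 11.6, and of 12.2 and 21.8. Of 6 genes for proteins that bind α-globin mRNA or its poly(A) tail, 5 passed the limit and 1 exceeded a ratio of 1, PCBP4 with an FPKM of 24.1 and 11.1 (1.05), against 8.51% of all genes. PCBP4 was under 1 after the GC content and length trend was taken out, at 0.57, and by count share, at 0.90. HNRNPD, which encodes AUF1, had 129.9 and 237.8 (-0.87), PABPC1, the poly(A)-binding protein, had 2125 and 1235 (0.78), and PCBP3 had 0 counts.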

How the data were processed

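RNA-seq libraries (100 nt paired-end reads) came from 3 αCP1/2 siRNA pools and 3 control siRNA pools of K562 cells. Per the authors' methods and the processing notes, reads were mapped with TopHat 1.4.1 to hg19 and Ensembl transcripts, with up to 3 mismatches per read, and FPKM was calculated by the authors with Cuffdiff 2.2.0. The deposited table also holds estimated counts, of which 85.6% and 86.9% of the positive values were whole within 0.01. How libraries were combined into 1 value per group is not given in the sources used here. The authors' own fold change, p-value and FDR columns, and their averages of FPKM, were not used. Linear models across libraries could not be fitted.

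Members and lists were chosen with earlier results of these data known. Some of the erythroid markers first listed are not reported here and were left out of the list. Log2 ratios used FPKM + 1 and genes whose FPKM averaged 1 or more over both columns. Intervals are exact 95% Poisson (counts) or exact binomial (shares) and were computed on counts rounded to whole numbers. Genes with up to 3 counts in each column get no fold. A symbol on 2 rows was taken once, from its higher row. Named genes are the 10 members, a selection from the fixed lists, and the 5 nearest to HBE1. Not every listed gene with an FPKM over 5 is named. Genes named from the HBE1 locus were chosen after their values were seen. GC content and length came from the longest transcript of GENCODE release 44 on GRCh37, for 96.8% of the genes tested. Functions were tested on simulated data. The tools were matplotlib 3.10.9, pysam 0.24.0, scipy 1.17.1, pandas 2.3.3 and numpy 2.4.6 under Python 3.11.15.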

Additional observations from a re-analysis of the deposited data

How the results depend on the processing

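HBE1 stayed above a log2 ratio of 1 under all 4 alternatives, at 2.11 with a pseudocount of 0.1, 1.81 with counts divided by column totals, 2.07 centred on the median and 1.96 after a GC content and length trend was taken out. That trend, applied to counts of genes, was chosen after seeing the data: 1 globin gene had a ratio of 1 or more with it against 3, since HBA1 and HBG2 fell below 1, and 689 of all genes against 1169. The number of globin genes was 4 with a pseudocount of 0.1 or with counts divided by column totals, 2 with an FPKM over 5 in either column, and 3 with HBA1 and HBA2, and HBG1 and HBG2, summed or with no filter.

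The number of all genes with a ratio of -1 or less was 450, and 791 with a pseudocount of 0.1, 1351 with counts divided by column totals and 292 with an FPKM over 5 in either column, where fewer genes were counted. Of the globin regulators, 2 had a ratio of 1 or more with a pseudocount of 0.1. With counts divided by column totals, 1 had a ratio of 1 or more and 3 a ratio of -1 or less. Ratios from column totals were not shifted by their median of -0.21. HBE1 took 91.3% of the globin FPKM in the KD-labelled column and 89.1% in the CTRL-labelled column, in place of 94.3% and 93.8% of counts, which are not per length. No paired analysis was possible because single libraries have no values of their own in the table, and no library could be left out. Depth limits all members but HBE1, whose counts were 31.5 or fewer.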
